A study of Mus musculus with 12 samples.

Results

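ERVK sites were the genomic intervals of the deposited table whose repeat family was given as exactly ERVK. There were 7254 of them among 178431 intervals used, or 4.07% of the intervals, and they held 915390 of 170777335 counts (0.536%). A further 325 intervals carried ERVK together with another label or with a question mark and were not members. The intervals are called sites below, and 92.7% of all sites were 25 bases wide. The libraries were QuantSeq REV libraries, which read RNA from the poly(A) tail inwards, so that counts lie near RNA ends.

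The RNA came from lumbar dorsal root ganglia L4 to L6 of Adv-Cre//Ribotag mice, in which Cre recombinase under the advillin promoter puts an HA tag on the ribosomal protein Rpl22 of sensory neurons. One sciatic nerve was crushed, and 3 days after injury ganglia were collected from that side (injured) and from the other side of the same animals (naive). RNA was taken after precipitation through the HA tag (IP) and from the lysate before it (input), which gave 4 groups of 3 libraries. Every library pooled 4 mice, and all mice carried the same alleles. The labels number the libraries 1 to 3 in each group but do not state whether equal numbers mark one pool of mice. Advillin is expressed across sensory neurons, so IP covers these neurons as a whole, and the naive ganglia did not come from uninjured mice. Of 12 listed sensory neuron markers 10 had a counted site, none of them at 0 in any group, and their summed level was higher in every IP library (17211 CPM, counts scaled to the library total, and above) than in every input library (14526 and below). In bulk RNA fewer cells of a type and less RNA per cell cannot be told apart.

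ERVK is the class of mouse endogenous retroviruses that includes the intracisternal A particles and the MusD and ETn elements. A full element carries the same long terminal repeat (LTR) at either end, with retroviral genes between, and the LTR holds both a promoter and a polyadenylation signal, so that transcripts start in one LTR and end in the other, and a lone LTR can also end the transcript of a neighbouring gene. Most copies are held silent by DNA methylation and by KRAB zinc finger proteins that recruit TRIM28 and the histone methyltransferase SETDB1.

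Many of these sites could not be told apart by their counts. Among the 330 ERVK sites with at least 240 counts over the 12 libraries, 187 (56.7%) had counts that matched those of another ERVK site in all 12 libraries within 2 counts or 1%, and 167 had exactly the same counts. They fell into 59 groups, of which 24 spanned more than 1 chromosome and 35 held exactly 2 sites. The share of such sites was 46.7% for ERV1, another class of endogenous retrovirus, and 15.6% for ERVL-MaLR, 3.70% for ERVL, 6.05% for L1, 9.34% for B2, 13.2% for Alu and 0.501% for sites in no repeat. These 187 sites held 62.3% of all ERVK counts. Sites under 240 counts were not compared, and some of them have identical counts as well. How reads with several alignments were assigned is not stated, and a shared count here is therefore a count for the group and not for one place. Sums over ERVK sites count such reads once per site, and the ERVK total is also given below with 1 site per group.

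**Figure D1:**
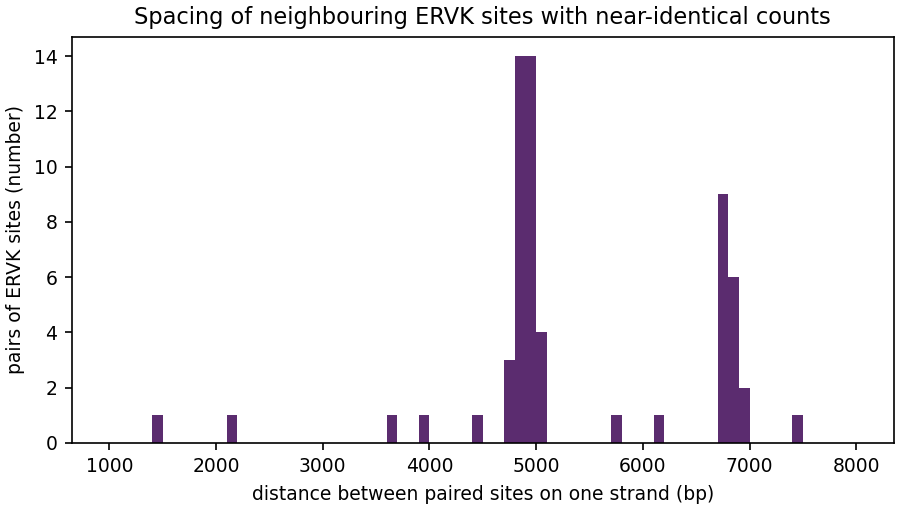
Distances in base pairs between neighbouring ERVK sites of one group of near-identical counts, on one strand and at most 12 kb apart (60 pairs, bins of 100 bp). The pairs gather near 4.9 kb and 6.8 kb.

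The paired sites lay at preferred distances. In 38 of the 59 groups at least 1 pair lay on one strand within 12 kb, 60 pairs in all. Of these, 28 were between 4800 and 5000 bp apart and 17 between 6500 and 7000 bp, with 15 elsewhere and a median of 4931 bp. The plot of distances shows both peaks. A group of 8 sites illustrates the arrangement: its totals ran from 11127 to 11130 counts, it lay on chromosomes 3, 7, 10 and 17, and each chromosome held a pair. The sites stood in a gene on its strand (Rdh13 on chromosome 7 and the noncoding RNA 4930565D16Rik on chromosome 3), antisense to Trpm2 on chromosome 10, and outside genes on chromosome 17.

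The sequence beside 1 member of that group could be read. The site at chromosome 7, 4460410 to 4460435 on the minus strand (GRCm38) ends 12 bases before the promoter window that RefSeq gives for Eps8l1, which lies on the plus strand. It was the only one of 32851 promoter windows with an ERVK site of at least 240 counts within 100 bp. The window, chr7:4460447-4460746, is printed on the minus strand, that is, in the direction in which an RNA that ends at the site would have been transcribed. Capitals mark the motifs CCAAT and AAGATGGC.

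Eps8l1 promoter window, minus strand: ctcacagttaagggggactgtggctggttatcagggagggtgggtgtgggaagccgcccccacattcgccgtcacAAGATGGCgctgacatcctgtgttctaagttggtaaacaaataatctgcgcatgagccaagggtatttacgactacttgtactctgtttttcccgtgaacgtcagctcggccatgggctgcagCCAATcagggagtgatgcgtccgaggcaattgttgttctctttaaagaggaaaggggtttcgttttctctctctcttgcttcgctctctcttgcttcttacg

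The motif AAGATGGC, searched on both strands, is present in 2.75% of all 32851 promoter windows and CCAAT in 37.4%, and neither overlaps the other. The polyadenylation hexamers AATAAA and ATTAAA are not in this window, which ends before the site. Of the other windows, 19 shared a run of at least 25 bases with it. The motifs were looked for after the window had been read, and the matches are a description only.

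Most ERVK sites lay outside genes, while the split of the counts over positions depended on how sites with shared counts were treated. Of the 7254 sites, 124 lay at an annotated 3′ end of a gene on its strand, 1134 elsewhere in a gene on its strand, 1025 antisense to a gene, and 484 over several genes or a gene of unresolved strand. The other 4487 (61.9%) lay outside genes. Their deposited counts were split as 5.82%, 14.7%, 23.5%, 4.69% and 51.3% in that order. Among sites in or antisense to a gene, 55.1% of ERVK sites and 46.7% of ERVK counts were on the gene's strand, compared with 64.4% of sites and 91.0% of counts for ERV1, ERVL and ERVL-MaLR together, and 69.5% and 79.4% for L1. For B2 the values were 44.2% and 42.5%, for Alu 56.2% and 75.4%, and for sites in no repeat 97.8% and 99.8%. The share of ERVK counts on the gene's strand turned with the treatment of shared counts. It was 61.0% with 1 site per group of near-identical counts, where the share antisense to a gene was 16.9% of ERVK counts and that outside genes 49.0%. Because 22 of the 59 groups lay in more than 1 position class, the share on the gene's strand could be from 52.7% to 73.4% depending on the site kept. Among sites that shared counts with no other it was 80.7% of counts and 55.7% of sites, with 8.28% of the counts antisense and 46.3% outside genes. The other families were not recomputed in this way. These shares were not tested, because sites with shared counts are not independent of each other. For 2141 genes the strand was itself read from counts at the gene's ends. An abundant site at such an end is on the gene's strand by construction, in every family.

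**Figure D2:**
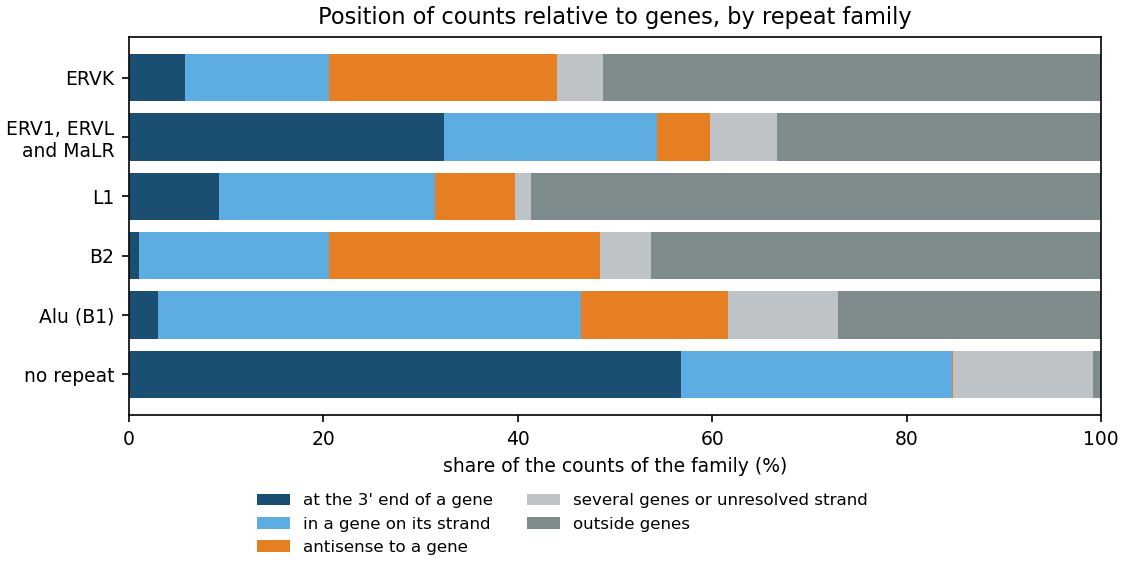
Share of the deposited counts (percent, stacked bars; shared counts stand once per site) of each repeat family by position relative to GRCm38.p6 genes, all 12 libraries summed. The antisense part holds 23.5% of ERVK counts and 5.40% of those of ERV1, ERVL and ERVL-MaLR together.

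Counts were concentrated in few sites. No count was found in any library at 2104 ERVK sites (29.0%). For such a site 3 counts in all libraries together, or 0.0176 CPM, is the limit that a count of 0 allows. Limits and intervals of this kind cover counting error only, because reads that carry no molecular identifier can be copies of one molecule. Counts above 0 in all 12 libraries were found at 376 sites. The 10 most abundant sites held 27.9% of the ERVK counts, and the 100 most abundant held 73.3%. The filter on low counts left 809 sites (11.2%, against 25.9% of all sites), and these held 91.4% of ERVK counts. The most abundant site lay outside genes at chromosome 11, 5818431 to 5818456, minus strand, with 29229 counts and between 120 and 246 CPM (from here on scaled by the TMM method) in the 12 libraries. Next came a group of 4 near-identical sites of between 26304 and 26317 counts on chromosomes 2 and 3, at 84505444 and 84510321 on chromosome 2, where the first is antisense to Gm13710, and antisense to Mbnl1, which encodes a splicing regulator, at 60489940 and 60494817 on chromosome 3. It measured from 110 to 203 CPM in IP libraries and from 111 to 155 in input.

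Several abundant sites were the ends of ordinary genes. At 155 sites, 84 of them at protein-coding genes, the centre lay at the annotated 3′ end of a gene on its strand, whether or not another gene overlapped it, and 8.48% of ERVK counts were at these sites. Where the strand of a gene was read from counts at its ends, an abundant site there is on that strand by construction. The most abundant was at chromosome 16, 17526271 to 17526296, 50 bases before the annotated end of Lztr1, which encodes an adaptor of a ubiquitin ligase, with 24282 counts. It measured 142, 159 and 172 CPM in IP naive, 165, 152 and 147 in IP injured, 131, 121 and 143 in input naive and 124, 138 and 140 in input injured libraries. Injured and naive libraries overlapped in each fraction, as did IP and input in naive ganglia, while in injured ganglia every IP library was above every input library. The site of Tkt, which encodes transketolase of the pentose phosphate pathway, at chromosome 14, 30574674 to 30574699, 38 bases before the end, measured from 14.0 to 23.3 CPM. These 2 sites passed the test in none of the 4 comparisons of groups (for Lztr1, adjusted p = 0.251 and 0.393 for IP over input in naive and injured ganglia).

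The exact test did not separate the groups by the total of ERVK counts. Total counts per library ranged from 10045178 to 18687123. ERVK made up 0.591%, 0.502% and 0.588% of the counts of the 3 IP naive libraries and 0.561%, 0.493% and 0.539% of the IP injured ones. In input it was 0.542%, 0.562% and 0.516% in naive and 0.532%, 0.503% and 0.460% in injured ganglia. All 4 groups overlap. By a two-sided exact permutation test of 3 against 3 libraries, which cannot go below p = 0.1, the difference gave p = 0.5 for injury in IP, 0.2 for injury in input, 0.6 for IP against input in naive ganglia and 0.4 in injured ones. In each fraction the injured library was below the naive library of the same number, in 6 of 6 pairs. If equal numbers mark one pool, the mean difference was -0.0293 ± 0.0197 percentage points in IP and -0.0415 ± 0.0277 in input (SD, n = 3 pairs), and an exact sign-flip test over 3 pairs gave p = 0.25 in both, the smallest it can give. As a share of the counts outside ribosomal RNA repeats, ERVK made up 0.580%, 0.553% and 0.517% in the input injured libraries, all below the 0.612%, 0.626% and 0.591% of the input naive ones, with a difference of -0.0596 points and an exact permutation p = 0.1, the smallest that test can give. In the other 3 comparisons the exact permutation test gave p = 0.4 for injury in IP, 0.5 for IP over input in naive and 0.3 in injured ganglia on that scale. With 1 site per group of near-identical counts the mean share was between 0.288% and 0.299% in the 4 groups.

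**Figure D3:**
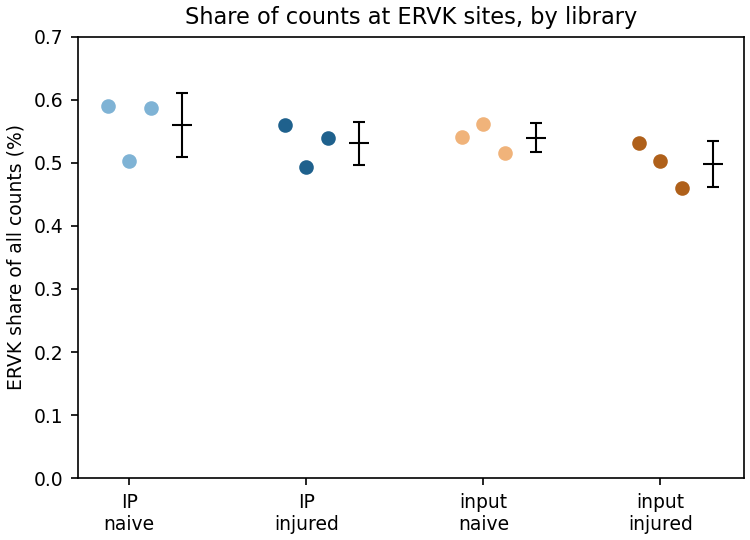
Percentage of the counts of each library that lay at ERVK sites, 3 libraries per group as points, with the group mean and SD as bars beside them. The 12 libraries lie between 0.460% and 0.591% and the groups overlap.

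In the fit over 180 repeat families (edgeR quasi-likelihood, p-values adjusted by the Benjamini-Hochberg method over the families), the ERVK sum was not called in any of the 5 comparisons. The log2 fold change on injury was -0.05 (95% interval -0.21 to 0.10, adjusted p = 0.893) in IP and -0.11 (-0.26 to 0.04, adjusted p = 0.689) in input, where 0.0% and 0.556% of families were called. IP against input gave 0.07 (-0.08 to 0.23, adjusted p = 0.530) in naive and 0.13 (-0.02 to 0.29, adjusted p = 0.221) in injured ganglia, where 16.1% and 20.0% of families were called. With 1 site per group of near-identical counts the 4 log2 fold changes were 0.01, -0.04, 0.02 and 0.07. In DESeq2 the ERVK sum was not called either, with adjusted p of 0.977, 0.969, 0.478 and 0.476, and the unadjusted p in edgeR was 0.468, 0.138, 0.309 and 0.0811. P-values measure the spread between these pools, of which each group had 3.

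Several other repeat families were called between IP and input. B2 is a family of short interspersed elements transcribed by RNA polymerase III. Which polymerase made the RNA counted at its sites was not examined. B2 sites were lower in IP, with a log2 fold change of -1.79 ± 0.37 (SE, adjusted p = 0.0167) in naive and -1.96 ± 0.37 (adjusted p = 0.00612) in injured ganglia. Alu sites had -0.47 and -0.50 (adjusted p = 0.0130 and 0.00494). ERVL-MaLR sites were higher by 0.22 and 0.28 (adjusted p = 0.0392 and 0.00708). The sum of sites in no repeat was higher by 0.14 and 0.25 (adjusted p = 0.0408 and 0.00148). L1 and ERVL sites were called in injured ganglia only, with 0.23 (adjusted p = 0.00367) and 0.34 (adjusted p = 0.00708). In naive ganglia they had 0.08 (adjusted p = 0.265) and 0.18 (adjusted p = 0.176). ERV1 sites had -0.16 and -0.10 and were not called (adjusted p = 0.391 and 0.579). The log2 ratio of ERVK to B2 counts was 1.92 higher in IP than in input in naive ganglia and 2.18 higher in injured ganglia, with no overlap of libraries, and p was 0.1 in both, the smallest that this exact permutation test can give (0.267 after adjustment over 16 ratios). The log2 ratio of ERVK to L1 differed by -0.01 and -0.10 (exact permutation p = 1.0 and 0.3).

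**Figure D4:**
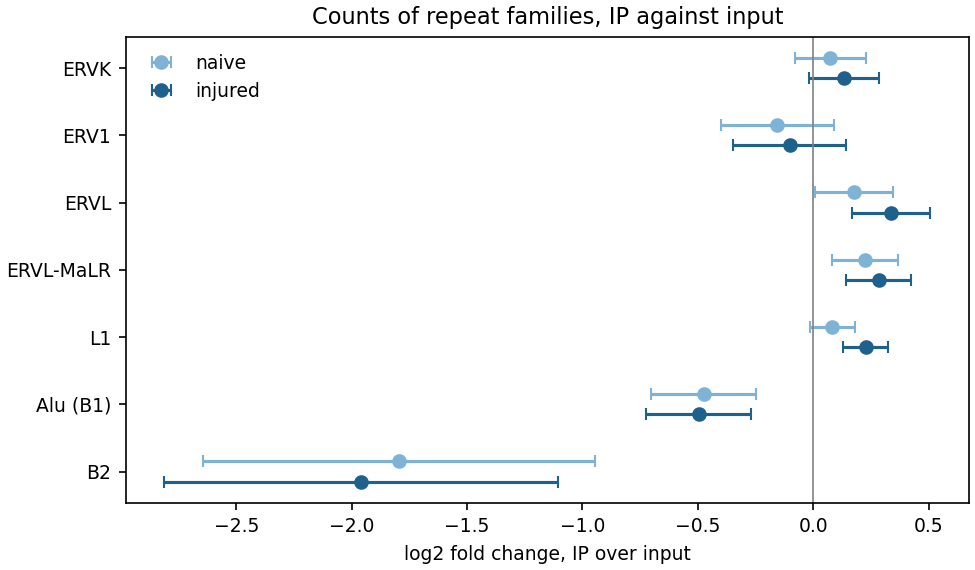
Log2 fold change of IP over input for the count sums of 7 repeat families, in naive and in injured ganglia, with 95% confidence intervals from the fit over all 180 families. The ERVK intervals include 0, while those of B2 and Alu lie below it.

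Split by position, the sum over sites in several genes or genes of unresolved strand was the only one to pass, and it no longer passed without 1 site. That sum rose on injury by a log2 fold change of 0.76 ± 0.12 (SE, adjusted p = 0.00985) in IP, where 0.998% of 401 sums of a family at a position were called, and by 0.63 ± 0.12 (adjusted p = 0.0222) in input, where 0.748% were called. Without its most abundant site the change was 0.01 (95% interval -0.30 to 0.32, adjusted p = 0.996) in IP and 0.11 (-0.20 to 0.42, adjusted p = 0.968) in input. That site was chosen after its values were seen. The rise of the class also ended in IP without IP naive library 3 (0.73, adjusted p = 0.0574) and in input in 5 of 6 fits that left out a library (log2 fold change 0.51 to 0.67, adjusted p 0.0555 to 0.134), all but the one without input injured library 3. Sums at 3′ ends, on the gene's strand, antisense and outside genes had log2 fold changes between -0.16 and 0.02 on injury, with no call. Between IP and input 0 of 5 position sums were called in either state by edgeR or DESeq2, and 1 and 0 had an unadjusted p under 0.05, where 15.7% and 20.9% of sums were called.

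The site that rose on injury was the annotated 3′ end of Scpep1, which encodes a serine carboxypeptidase. It lies at chromosome 11, 88924030 to 88924055, minus strand, 22 bases before the annotated end of Scpep1 (88924020 to 88955442), and within the noncoding RNA Scpep1os of the opposite strand. It measured 74.7, 57.4 and 55.0 CPM in the IP naive libraries and 225, 160 and 231 in the IP injured libraries. In input the values were 49.3, 45.5 and 66.5 CPM in naive and 119, 156 and 128 in injured ganglia. Every injured library was above every naive library in both fractions. The log2 fold change was 1.72 ± 0.21 (SE, 3.29-fold, adjusted p = 0.00199) in IP and 1.32 ± 0.21 (2.50-fold, adjusted p = 0.0170) in input, and the difference between the 2 changes was 0.40 (adjusted p = 0.970). The call in IP was kept in all 6 fits that left out 1 library (1.67 to 1.93). The call in input ended without input injured library 2 (1.19, adjusted p = 0.0895), without input naive library 1 (1.25, 0.112), without input naive library 2 (1.20, 0.0912) and in a fit of the 2 input groups alone (1.29, 0.0664). No other ERVK site had near-identical counts, and no other site of Scpep1 passed the filter. Of 5 tested macrophage markers, 1 was higher on injury in IP (C1qc) and 0 in input, with median log2 fold changes of 0.64 and 0.79. Their summed level ran from 14.8 to 28.5 CPM in IP naive and 8.84 to 72.4 in IP injured libraries, and from 152 to 214 in input naive and 207 to 284 in input injured ones, with none of the 5 at 0. Of 6 satellite glia markers 1 was called on injury in IP. This was Glul, which encodes glutamine synthetase, with a log2 fold change of 0.90 ± 0.12 (SE, adjusted p = 3.38e-05). The median log2 fold change of the 6 satellite glia markers was 0.04 in IP and -0.09 in input. Of all 10005 tested genes, 1.52% were called on injury in IP and 1.27% in input. The summed level of the satellite glia markers was 455 to 608 CPM in IP naive and 699 to 907 in IP injured libraries, with no overlap. In input it was 1828 to 2009 in naive and 1824 to 2032 in injured libraries. The part of either list in the result was not tested.

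That was the only ERVK site called on injury in IP and the only one in input, of 809 tested, or 1 against 0.324% and 1 against 0.208% of all 46229 tested sites called. With the replicate number as a block, 1 site was called in IP (0.264% of all sites were called) and 2 in input (0.266%). The site of Scpep1 was among both (1.71, adjusted p = 0.00500, and 1.34, adjusted p = 0.0248), and the one added in input was the end of Gpd1l, described below. DESeq2 called 10 and 8 ERVK sites, where it called 2.05% and 1.79% of all sites, and an unadjusted p under 0.05 in edgeR was reached by 41 and 69, beside 8.87% and 9.12% of all sites. The median log2 fold change of ERVK sites was -0.10 in IP and -0.12 in input, beside 0.06 and 0.06 over all tested sites. Of the 809 ERVK sites, 187 had counts near-identical to those of another. The numbers of sites and the medians therefore hold some signals more than once. No ERVK site was called for a difference between the injury effects in IP and in input by edgeR, where 0.0% of all sites were called, although 27 had an unadjusted p under 0.05 (4.96% of all sites did), and DESeq2 called 1 (0.156% of all sites).

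Some sites that missed the threshold, with identical counts and so not told apart, had counts in injured ganglia only. On chromosome 3, minus strand, outside genes, sites at 92211470, 92246180 and 92280972 had identical counts of 0 in each of the 6 naive libraries, of 29, 40 and 55 in IP injured libraries and of 0, 16 and 22 in input injured libraries. These sites were picked because they had 0 counts in the naive and many in the IP injured libraries. A fold change over naive was fixed by that choice and is not given. They passed the filter on low counts through injured libraries only, and the adjusted p in edgeR was 0.341 in IP and 0.455 in input. The ERVK site next after the called one in this comparison, at chromosome 3, 19900998 to 19901023, 2026 bases past the annotated end of 4632415L05Rik, measured 4.39, 7.05 and 4.89 CPM in IP naive and 18.4, 23.3 and 19.7 in IP injured libraries, with an adjusted p of 0.0976. Its input values of 11.2, 13.8 and 4.70 CPM in naive and 16.4, 16.2 and 11.8 in injured ganglia overlapped. All 4 sites were chosen after their values were seen.

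IP against input called 5 ERVK sites in naive ganglia, 2 higher and 3 lower in IP, and 5 in injured ganglia, 4 higher and 1 lower. Of all tested sites 4.54% were called in naive ganglia (1.72% higher and 2.82% lower) and 5.48% in injured ones (2.88% higher and 2.6% lower). With the replicate block 3 of the 5 were called in naive ganglia, where the chromosome 6 pair ended, and 5 of the 5 in injured ones (5.46% and 6.56% of all sites). DESeq2 called 43 and 17 ERVK sites (13.2% and 12.2% of all sites), and 98 and 68 had an unadjusted p under 0.05 in edgeR, as did 23.8% and 22.7% of all sites. The median log2 fold change of ERVK sites was 0.31 and 0.41, beside -0.14 and -0.10 over all tested sites. These numbers and medians hold some signals more than once, because 187 of the 809 tested ERVK sites had counts near-identical to another. The family sum with 1 site per group gave 0.02 and 0.07. Genes of other cell types moved with this comparison. Of 30 tested markers of satellite glia, Schwann cells, macrophages, fibroblasts and endothelial cells, 23 were lower in IP in naive and 22 in injured ganglia, and none was higher. Of 10 tested neuron markers, 3 were higher in each and none was lower. Of all 10005 tested genes, 6.66% were called in naive and 5.8% in injured ganglia, in either direction.

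Of the sites lower in IP, 1 lay in Cp, which encodes ceruloplasmin, a copper-carrying ferroxidase. The site is at chromosome 3, 19992838 to 19992863, plus strand, on the strand of Cp and 16900 bases before its annotated end. It measured 2.86, 3.20 and 3.24 CPM in IP naive and 11.4, 21.0 and 15.1 in input naive libraries, and 4.69, 8.17 and 9.77 in IP injured and 19.6, 36.0 and 23.5 in input injured ones. IP and input did not overlap in either state. The log2 fold change of IP over input was -2.35 ± 0.40 (SE, adjusted p = 0.00728) in naive and -1.80 ± 0.39 (adjusted p = 0.0191) in injured ganglia. The sum of the sites of Cp that lie in no repeat or at its annotated end was also lower, with -4.26 ± 0.96 (adjusted p = 0.00759) and -3.04 ± 0.88 (adjusted p = 0.0439). The call of the site in naive ganglia was kept in all 6 fits without 1 library, and that in injured ganglia ended without IP injured library 1 (-1.48, adjusted p = 0.121), without IP injured library 3 (-1.98, 0.0611) and without input injured library 2 (-1.49, 0.105). Satellite glia markers in CPM ran from 455 to 608 in IP naive libraries against 1828 to 2009 in input naive, and from 699 to 907 against 1824 to 2032 in injured ganglia, with none of the 6 tested at 0. Their part in the result was not tested.

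Sites higher in IP included 1 in Kif3a, which encodes a subunit of the kinesin-2 motor that carries cargo along microtubules. The site is at chromosome 11, 53586870 to 53586895, plus strand, on the strand of Kif3a and 17366 bases before its annotated end. It measured 44.2, 23.6 and 62.0 CPM in IP naive against 10.4, 13.2 and 9.18 in input naive libraries, and 46.6, 16.9 and 40.4 against 12.5, 4.91 and 9.64 in injured ones. IP was above input in each state with no overlap. The fitted log2 change was 1.98 ± 0.46 (SE, adjusted p = 0.0283) and 1.94 ± 0.46 (adjusted p = 0.0272), whereas the sum of the sites of Kif3a in no repeat or at its annotated end gave 0.31 ± 0.20 (adjusted p = 0.410) and 0.49 ± 0.20 (adjusted p = 0.169). The end of Kif3a itself, 32 bases before its annotated 3′ end at 53604204, gave 0.51 (adjusted p = 0.183) and 0.94 (adjusted p = 0.0261). The difference between the ERVK site and the other sites was not tested. The summed neuron markers in CPM ran from 17211 to 20612 in IP naive against 12978 to 14526 in input naive libraries and from 17374 to 19931 against 12604 to 13405 in injured ones, and their part in this and the next 3 results was not tested. The calls were kept without IP naive library 2 and, in injured ganglia, without IP injured library 2 or input injured library 1, and ended in the other fits without 1 library. Over the 6 fits of each state the log2 fold changes were 1.61 to 2.30 in naive and 1.67 to 2.35 in injured ganglia, and the adjusted p reached 0.133 and 0.112.

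A cluster of 3 sites past Mrgprb5, a member of the Mas-related receptor family of sensory neurons, held 1 more site that was higher in IP. Mrgprb5 is annotated on chromosome 7 from 48168017 to 48168985, a model of 969 bases. The middle site, 48161114 to 48161139, minus strand, lay 6891 bases past its annotated end and was called. It measured 35.6, 14.0 and 39.3 CPM in IP naive against 7.56, 7.11 and 4.25 in input naive libraries, and 27.0, 7.93 and 16.8 against 3.75, 4.31 and 3.99 in injured ones. IP was above input without overlap. IP over input gave a log2 fold change of 2.23 ± 0.49 (SE, adjusted p = 0.0232) and 2.10 ± 0.49 (adjusted p = 0.0268). The neighbours, 512 and 10765 bases past the end, gave 0.73 and 1.03 in naive and 1.42 and 1.61 in injured ganglia, and were not called (adjusted p 0.0732 to 0.363). These neighbours were chosen after their values were seen. The calls were kept in 1 of 6 fits each (without IP naive library 2 and without IP injured library 2) and ended in the others (adjusted p up to 0.109 and 0.130, log2 fold changes 1.95 to 2.59 and 1.70 to 2.52).

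Antisense to Zfp605, which encodes a zinc finger protein, lay a site at chromosome 5, 110117725 to 110117756, minus strand. It measured 67.9, 36.3 and 43.4 CPM in IP injured against 14.7, 25.4 and 13.3 in input injured libraries, and 51.5, 34.0 and 46.3 against 23.9, 22.3 and 21.7 in naive ones. IP lay above input in both states. On the log2 scale IP over input was 1.47 ± 0.31 (SE, adjusted p = 0.0162) in injured and 0.96 ± 0.30 (adjusted p = 0.0876) in naive ganglia. The call ended without IP injured library 1 (1.24, adjusted p = 0.0789), without input injured library 1 (1.37, 0.0551) and without input injured library 3 (1.31, 0.0596).

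The 3′ end of Gpd1l, which encodes a glycerol-3-phosphate dehydrogenase-like protein, was an ERVK site at chromosome 9, 114899360 to 114899385, minus strand, 33 bases before the annotated end. It measured 46.5, 44.1 and 39.0 CPM in IP injured and 21.6, 20.4 and 16.6 in input injured libraries, which did not overlap. The naive values of 92.5, 66.6 and 51.5 in IP and 55.3, 53.2 and 36.6 in input did overlap. The log2 fold change of IP over input was 1.14 ± 0.25 (SE, adjusted p = 0.0191) in injured and 0.54 ± 0.24 (adjusted p = 0.202) in naive ganglia, and the difference between the injury effects was 0.61 (adjusted p = 0.953). On injury the site had a log2 fold change of -1.31 in input (adjusted p = 0.0580), with every injured library below every naive one, and with the replicate block it was called, at -1.29 ± 0.19 (SE, adjusted p = 0.0150). The sum of the sites of Gpd1l in no repeat or at its annotated end includes this site. For IP over input in injured ganglia that sum gave 0.33 ± 0.16 (SE, adjusted p = 0.297). For injury in input it gave -0.62 ± 0.17 (SE, adjusted p = 0.0769). The call of IP over input in injured ganglia ended without IP injured library 1 (1.16, adjusted p = 0.0712). It also ended without input injured library 2 (1.20, 0.0532) and without input injured library 3 (1.05, 0.0687).

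The other 2 sites lower in IP naive were a pair of equal counts on chromosome 6, minus strand, outside genes, at 145895891 and 145902638. The pair had 0, 1 and 0 counts in IP naive and 45, 51 and 18 in input naive libraries. The 1 count in IP against 114 in input is 0.00668 of the input level, with a counting interval (Clopper-Pearson, 95%) from 0.000168 to 0.0380. The fit gave an adjusted p of 0.0390 (0.0518 with the replicate block), and the call was kept in 1 of 6 fits without a library, that without IP naive library 2 (adjusted p up to 0.159). In injured ganglia IP libraries held 5, 21 and 33 counts of the pair, input libraries held 11, 20 and 36, and the groups overlapped.

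**Figure D5:**
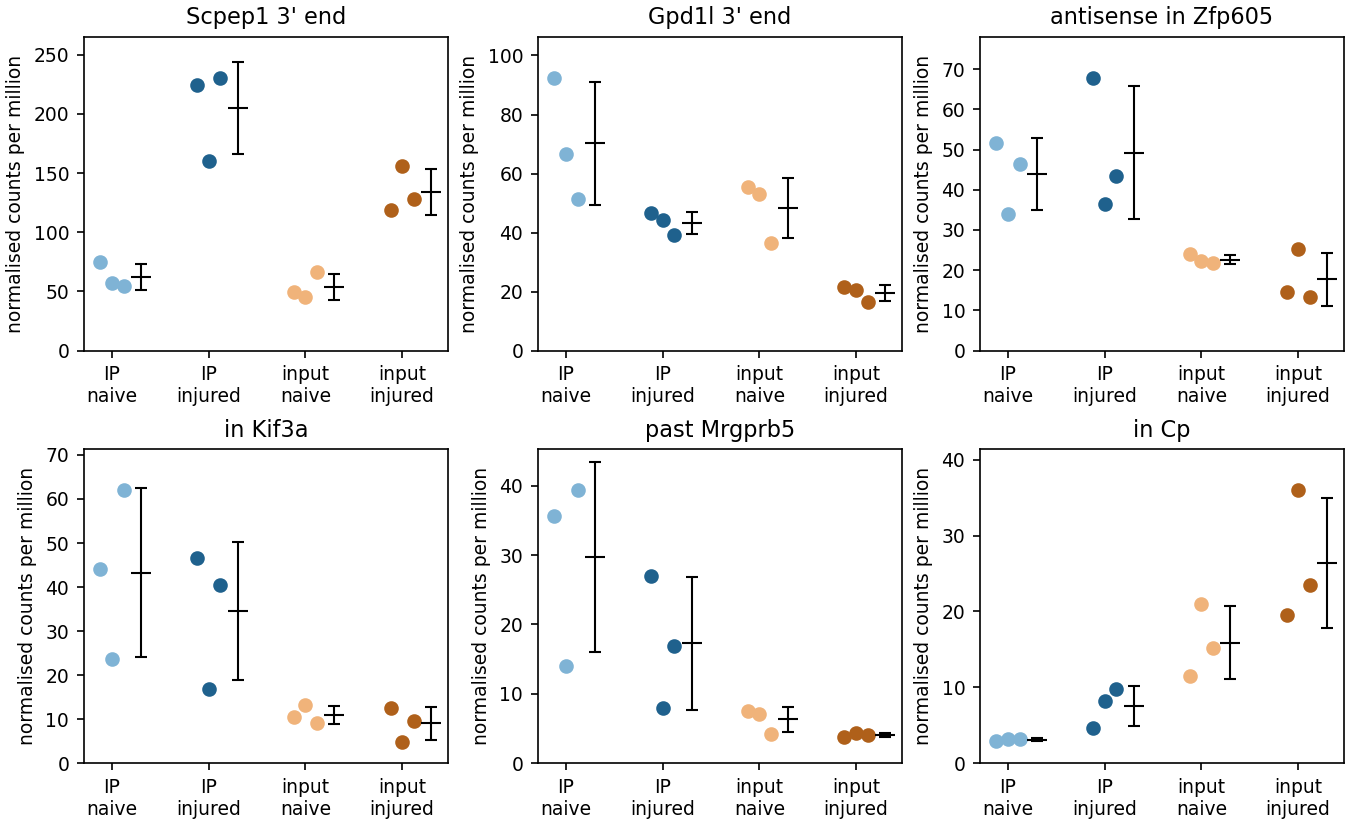
Normalised CPM of 6 ERVK sites called in at least 1 comparison, 3 libraries per group as points, with the group mean and SD as bars beside them; each panel has its own axis from 0. The Scpep1 site is higher in all injured libraries (119 CPM and above) than in naive ones (74.7 CPM and below).

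For 109 ERVK sites on the strand of 80 genes with other counted sites, and no ERVK site at the gene end, the Pearson correlation of the log2 fold change of the site with that of the gene was 0.21 on injury in IP and -0.06 in input, and for naive and injured IP against input it was 0.12 and 0.24. The Spearman values were 0.04, -0.05, 0.18 and 0.33. The points share libraries and some sites share counts, so these values describe the sites only. The site had the same sign as its gene in 47, 46, 61 and 64 of the 109.

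Gene lists drawn up around endogenous retroviruses showed few calls. Of 26 tested genes of LTR silencing (47 matched), none was called by edgeR in any of the 5 comparisons, where 1.52%, 1.27%, 6.66%, 5.8% and 0.0% of 10005 genes were called, and none by DESeq2. In the same order, 2, 6, 5, 3 and 2 of them had an unadjusted p under 0.05, beside 10.3%, 10.9%, 20.3%, 17.8% and 3.28% of all genes. DESeq2 called 2.86%, 2.6%, 10.7%, 8.93% and 0.15% of genes. The list had median log2 fold changes of 0.11 and 0.26 on injury, and -0.06 and -0.26 for IP against input. Of 18 tested genes that sense viral nucleic acids or act downstream, 1 was called: Ifit3, an interferon-induced antiviral gene, was lower in IP than in input in naive ganglia by a log2 fold change of -1.52 ± 0.45 (SE, adjusted p = 0.0457). The median of these 18 was 0.19 and 0.23 on injury in IP and input, and -0.57 and -0.64 for naive and injured IP against input, with 1, 3, 3 and 3 at an unadjusted p under 0.05. A list drawn up for retroviral genes taken over by the host and for receptors used by retroviruses had 6 tested members. Its median log2 fold change was 1.52 in IP and 0.91 in input on injury, and -0.54 and -0.15 for IP against input, beside medians of 0.01, 0.00, -0.03 and -0.00 over all genes. The edgeR test called none of the 6, and 2, 0, 1 and 0 had an unadjusted p under 0.05. DESeq2 called 1 on injury in IP, Mcoln2 (adjusted p = 0.0250, and 0.257 in edgeR). Mcoln2 encodes a cation channel of endosomes and lysosomes, and its link to retroviruses was not examined. For IP against input in naive ganglia DESeq2 called 1, Syna, which encodes the envelope-derived syncytin-A (adjusted p = 0.00841, and 0.0909 in edgeR).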

How the data were processed

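The authors deposited 1 table of counts of reads per genomic interval, with raw whole numbers for 12 libraries and the repeat family. The strand of a site was inferred from the order of lines, which starts again at chromosome 1 after chromosome Y. Lines before that point were taken as minus and those after it as plus. Among sites of at least 5000 counts, the first part held 1110 at RefSeq 3′ ends of minus genes and 60 at those of plus genes. The second part held 41 and 1140. Tools named in the submitters' processing notes are STAR, HTSeq and bcl2fastq 2.17. The treatment of reads with several alignments, and whether starts count from 0 or 1, is not given in the sources used here, and positions are printed as deposited (GRCm38). Of 178451 lines, 20 were damaged and left out, and 17 columns without a sample name were not used. Counts of sites, repeat families, families by position, and genes were each fitted with edgeR 4.0.16 in R 4.3.3 (TMM scaling, filterByExpr, 1 mean per group over all 12 libraries, quasi-likelihood F test, robust estimation). Benjamini-Hochberg adjustment ran over all units of a kind, and adjusted p-values under 0.05 were called. DESeq2 1.42.0 was an alternative, and exact permutation tests used scipy 1.17.1. Gene positions came from RefSeq for GRCm38.p6 (35095 genes). Strand came from the RefSeq promoter table for 27024 genes and from the counts for 2141, and 5930 had none. Promoter windows of chromosome 18 were not searched for nearby ERVK sites, while the motif shares and shared runs used all windows. The 3′ end class covers 100 bp before to 200 bp past the annotated end. A gene's sum holds its sites in no repeat and those at its end. On simulated counts for 46229 sites, IP injured against IP naive, 47% of sites changed 2-fold and 99% changed 4-fold were recovered, with 2 false calls. The simulated counts had less spread between libraries than the data, whose fitted common dispersion over sites was 0.953. The changed sites were drawn from the more abundant ones. Recovery in the data can therefore be lower than these rates.

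The members and gene lists were chosen with earlier results of these data known. The sites named are all ERVK sites called in a comparison, and those among the 10 most abundant and the 3 most abundant of each position class on which a statement rests. Further sites are marked as chosen after their values were seen. Also chosen after seeing the data were the robust option, the strand rule from counts, the grouping by near-identical counts, the sums without the most abundant site, the position split without shared counts, the pairs of shares, and the motifs.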

Additional observations from a re-analysis of the deposited data

How the results depend on the processing

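The ERVK family sum was called under no alternative run, but its small log2 change had the opposite sign in 14 alternative fits and the same sign in 56. For injury in IP it was 0.0109 with 1 site per near-identical group, for IP against input in naive ganglia -0.0186 when only these groups were fitted, and for the difference of injury effects -0.00189 with DESeq2 and -0.00186 with RLE size factors. Leaving out 1 library gave -0.131 to 0.0150 (injury in IP; 0.00610 without IP injured library 2 and 0.0150 without IP naive library 3), -0.0958 to 0.00482 (injury in input; the highest without input injured library 2), -0.0331 to 0.0842 (IP against input, naive; the lowest without IP naive library 3), -0.00991 to 0.102 (injured; -0.00991 without IP injured library 1 and -0.00341 without library 3), and -0.0687 to 0.0825 for the difference (-0.0593 and -0.0314 without IP injured libraries 1 and 3, -0.0687 and -0.0642 without IP naive libraries 1 and 2). The reported values of -0.112 for injury in input and 0.134 for IP against input in injured ganglia lay outside these ranges. The number of ERVK sites called depended on the tool: DESeq2 called 10, 8, 43, 17 and 1 in the 5 comparisons. Fitting only the groups compared gave 0 for injury in input, 1 for naive IP against input and 10 for injured, and a filter of at least 10 counts gave 3 in naive ganglia. Without 1 library the counts were 1 to 1, 0 to 1, 1 to 5, 0 to 6 and 0 to 0, and the number of position sums called was 0 to 1 in both injury comparisons. Without the most abundant site of each class 0 position sums were called on injury in IP and in input. DESeq2 called 3 genes of the lists on retroviruses and viral sensing, over all comparisons, beside 1 in edgeR. With the replicate number as a block, 2 sites were called for injury in input and 3 for IP against input in naive ganglia, where the chromosome 6 pair ended (adjusted p = 0.0518). The block changed the call of no other ERVK site called without it. Of 18 same-numbered pairs 1 had a correlation of deviations over 0.1 (-0.03 to 0.12), so the number was not used in the reported fits, but this does not show that the libraries are unpaired. The share of ERVK in all counts kept its direction in all 40 alternatives, including counts outside ribosomal RNA repeats. The share of ERVK counts on the gene's strand was 61.0% with 1 site per group and 80.7% among sites that shared counts with no other, beside 46.7%. Called sites kept their direction in every alternative fit, with the call kept in 94 and lost in 50. The causes were not tested. In simulated counts of less spread than the data, 47% of 2-fold changes at more abundant sites were recovered. Changes of this size, and larger ones at less abundant or more variable single sites, could therefore be missed.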
